A study of Mus musculus with 99 samples.

Results

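RNA-seq was used to ask what happens to gene expression in mouse embryonic stem cells (ESCs) when Eed is deleted. Eed fl/fl ESCs carry Eed alleles flanked by loxP sites and a Cre recombinase fused to a tamoxifen-binding receptor domain, expressed from the ROSA26 locus (ROSA26:creERT2), so that 4-hydroxytamoxifen (OHT) turns the recombinase on. Members are all libraries named for Eed in the count table: 4 of the 99 samples of the series, and 4 of its 16 RNA-seq libraries. Of these, 2 came from Eed fl/fl cells treated with 0.5 µM OHT for 72 h (+OHT) and 2 from the same cells given ethanol, the vehicle (−OHT). All 4 share the floxed alleles and the Cre, so neither group tells the effect of OHT or Cre activity apart from that of the deletion. The lines were derived from blastocysts of ROSA26:creERT2 Eed fl/fl mice, and the study's resource list names 2 clones (clone#1 and clone#4) without saying which library came from which. Cells were grown on gelatin in serum medium with 2i and LIF. The sample descriptions name Ring1b, in place of Eed, as the gene that OHT deletes in these libraries. For comparison, 4 libraries of Parental cells were used, 2 with 0.5 µM OHT for 72 h and 2 with vehicle. Parental cells are ROSA26:creERT2 RING1A−/−; RING1B fl/fl ESCs, which lack RING1A throughout and lose RING1B with OHT.

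EED is a core subunit of Polycomb repressive complex 2 (PRC2), which places the histone mark H3K27me3 through its catalytic subunit EZH2 or EZH1. EED binds that mark and stimulates the enzyme, and complexes without EED are unstable and inactive. RING1A and RING1B are the catalytic subunits of Polycomb repressive complex 1 (PRC1), which places H2AK119ub1. In ESCs both marks lie mainly at CpG-rich promoters of silent developmental genes such as Hox, Gata and Wnt genes.

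The promoters of 3 genes on which the results below turn are shown first, since Polycomb marks lie at CpG-rich promoters. Eed is the targeted gene, Ano3 is one of the 2 genes called with OHT, and Gata3 shares with Ccnd2 the lowest adjusted p for a different response in Eed fl/fl and Parental cells. Each sequence is 300 bases around the annotated start (RefSeq, GRCm38.p6), 5′ to 3′ on the strand of the gene, with each CpG dinucleotide (the letters CG, which read the same on both strands) in capitals. Eed lies at chr7:89980927-89981226 on the minus strand, Ano3 at chr2:110950195-110950494 on the minus strand and Gata3 at chr2:9878551-9878850 on the minus strand.
Eed: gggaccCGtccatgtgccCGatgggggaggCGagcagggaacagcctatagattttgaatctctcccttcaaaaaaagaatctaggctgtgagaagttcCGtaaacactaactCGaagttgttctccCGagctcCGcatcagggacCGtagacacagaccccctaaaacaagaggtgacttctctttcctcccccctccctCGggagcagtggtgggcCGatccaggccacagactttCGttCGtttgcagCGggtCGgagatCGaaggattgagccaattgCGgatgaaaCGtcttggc
Ano3: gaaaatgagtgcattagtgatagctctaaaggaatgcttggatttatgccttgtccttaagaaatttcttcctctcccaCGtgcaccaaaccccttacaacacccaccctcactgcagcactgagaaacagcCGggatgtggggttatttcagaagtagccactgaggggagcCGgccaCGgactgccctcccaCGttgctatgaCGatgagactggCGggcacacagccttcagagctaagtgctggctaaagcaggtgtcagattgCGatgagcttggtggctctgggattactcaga
Gata3: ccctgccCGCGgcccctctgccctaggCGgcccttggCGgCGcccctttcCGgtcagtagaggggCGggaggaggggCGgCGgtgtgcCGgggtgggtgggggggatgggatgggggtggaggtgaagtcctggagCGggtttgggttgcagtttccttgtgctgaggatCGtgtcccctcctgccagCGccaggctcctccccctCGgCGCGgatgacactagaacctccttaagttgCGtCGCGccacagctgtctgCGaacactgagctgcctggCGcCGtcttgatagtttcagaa
The Gata3 window held 22 CpGs, the Eed window 17 and the Ano3 window 8. Over 32851 promoters of the same length the median was 7, and 94.6% held at least 1. Of these 3 genes, only Gata3 had promoter peaks of H3K27me3 and RING1B in untreated Parental cells.

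The 4 libraries held 6957248 to 9443814 counted reads and 43762 to 46757 genes with a count. All 4 expressed the defining ESC markers: Pou5f1 ranged from 288 to 406 CPM (counts scaled to library size and TMM factor) and Nanog from 327 to 412, and the summed level of 6 ESC markers was 1874 and 1570 CPM without OHT and 1609 and 1348 with OHT. Feeder fibroblast markers summed to 22 and 33.5 CPM without OHT and 31.1 and 47.7 with OHT over 6 genes, and none of the 6 was at 0 in any library. Summed levels without OHT and with OHT were 13.6 and 25.8 against 19 and 26.1 CPM for 4 primitive endoderm markers, and 6.91 and 22.6 against 24.8 and 24.8 for 4 trophoblast markers. They were 2.96 and 5.62 against 4.36 and 7.36 CPM for 3 mesendoderm markers. In bulk RNA, fewer cells of a type and less RNA per cell cannot be told apart.

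Eed RNA was lower with OHT but was not lost. The gene (ENSMUSG00000030619.9, mm10 chromosome 7, 89954654 to 89980983, minus strand) had 255 and 173 CPM in the −OHT libraries and 67.1 and 43.7 CPM in the +OHT libraries, from 2069 and 1446 against 539 and 356 reads. The groups did not overlap. The means were 214.1 ± 58.3 and 55.4 ± 16.6 CPM (SD, n = 2 each), so that 0.259 of the −OHT mean remained. The log2 fold change was −1.95 (standard error 0.315). Its adjusted p of 0.0766 (edgeR quasi-likelihood test, Benjamini-Hochberg over 25170 genes) missed the threshold of 0.05. DESeq2 gave an adjusted p of 0.000143, and one edgeR fit of all 16 RNA-seq libraries gave 1.47e-05. Counts were made per gene, so reads from exons outside the floxed segment are part of these values. How much of the RNA could still encode EED was not analysed here. The paper reports that H3K27me3 was completely lost in Eed fl/fl ESCs after the same OHT treatment. That loss was not tested here. Rnf2, which encodes RING1B and which the sample descriptions name as the target, had 246 and 176 CPM without OHT and 215 and 143 with OHT, and these groups overlapped.

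The other subunits of PRC2 were not called by edgeR, by DESeq2 or in the fit of 16 libraries. Of the 13 PRC2 genes, all tested, none passed in edgeR the threshold of an adjusted p under 0.05 with a log2 fold change of 1.5 or more in size, and the median log2 fold change was 0.12, against 0.08 over all genes. Ezh2, the main catalytic subunit, had 102 and 86.9 CPM without OHT and 101 and 105 with OHT. Suz12, the core scaffold, had 95.6 and 79.1 CPM without and 109 and 113 with OHT, that is 0.35 ± 0.25 as a log2 fold change (± standard error, adjusted p = 0.838 in edgeR). Ezh1, the second catalytic subunit, had a log2 fold change of −0.25, and the histone-binding subunits Rbbp4 and Rbbp7 had −0.78 and −0.72. Aebp2, an accessory subunit of PRC2.2, had the next lowest adjusted p after Eed: 43.6 and 38.0 CPM without OHT against 74.9 and 80.5 with OHT, that is 0.93 ± 0.239 as a log2 fold change (± standard error, adjusted p = 0.481). The edgeR fit of 16 libraries gave Aebp2 an adjusted p of 0.0217 at a log2 fold change of 0.997, short of the fold threshold. DESeq2 gave it an adjusted p of 0.787. Jarid2, the other PRC2.2 subunit, had a log2 fold change of −0.11. Among PRC2.1 subunits, log2 fold changes were −0.56 for Mtf2, 0.48 for Phf1, 0.30 for Phf19, 0.52 for Epop and 0.37 for Lcor, with adjusted p from 0.833 to 0.919. The 26 PRC1 subunit genes held no call, with a median of −0.01. The lowest adjusted p among them were those of Scml2 (log2 fold change 1.65, adjusted p = 0.749) and Pcgf3 (0.51, adjusted p = 0.833). DESeq2 gave no adjusted p to Phf1 and Scml2, so it could not call them.

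**Figure D1:**
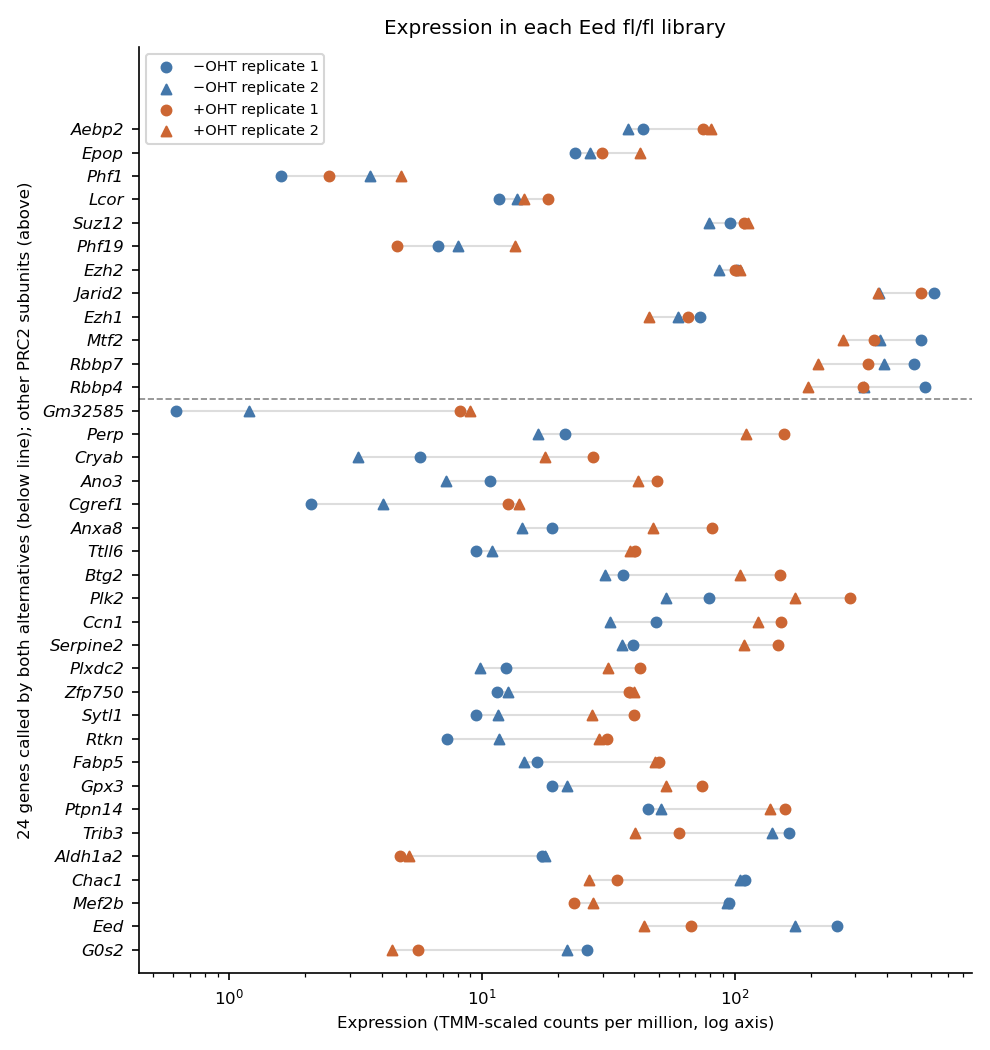
Expression of each gene in the 4 Eed fl/fl libraries, as TMM-scaled CPM on a log axis, with blue for −OHT, orange for +OHT, circles for replicate 1 and triangles for replicate 2. For the 24 genes below the dashed line, which are those called both by DESeq2 and in one fit of 16 libraries, the colors do not overlap, as that choice favors. Of the 13 PRC2 subunits, Eed included, 4 had both +OHT libraries above and 4 both below the −OHT libraries, beside 22.1% and 15.5% of all genes tested.

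In edgeR, 2 genes were called higher with OHT and none lower, where Eed itself missed the threshold. The calls were 2 of 25170 genes tested (0.00795%) higher and 0 (0%) lower, while 1372 genes (5.45%) had an unadjusted p under 0.05. Perp, which encodes a membrane protein of desmosomes and a target of p53, lies on chromosome 10 from 18845020 to 18857073. It had 21.3 and 16.6 CPM without OHT and 157 and 110.5 with OHT. The mean rose 7.05-fold, that is 2.82 ± 0.293 as a log2 fold change (± standard error, adjusted p = 0.0216). Ano3, a member of the anoctamin family of membrane proteins, lies on chromosome 2 from 110655201 to 110950923. It had 10.7 and 7.17 CPM without OHT and 49.2 and 41.4 with OHT. Its mean rose 5.06-fold, that is 2.34 ± 0.282 as a log2 fold change (± standard error, adjusted p = 0.0482). For both genes each +OHT library stood above each −OHT library. Perp had promoter peaks of H3K27me3, SUZ12, RING1B and H2AK119ub1 in untreated Parental cells, and Ano3 had none of these 4. Ano3 was not called by limma (adjusted p = 0.0652) or by edgeR without the filter on low counts (adjusted p = 0.0896).

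The number of calls depended on the method and on the libraries. DESeq2 called 19 genes higher (0.125% of the 15248 to which it gave an adjusted p) and 13 lower (0.0853%), and one edgeR fit of the 16 libraries, in which 8 groups share the estimate of spread, called 42 higher (0.152%) and 7 lower (0.0253%). A replicate block, in which same-numbered libraries form a pair, gave 140 higher and 21 lower. Without −OHT replicate 1, −OHT replicate 2, +OHT replicate 1 and +OHT replicate 2, respectively, edgeR called 19, 241, 9 and 27 genes higher and 4, 21, 17 and 5 lower, where the lone sample is assumed to vary like the other group.

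DESeq2 and the fit of 16 libraries shared 18 genes higher and 6 lower. These 24 genes, chosen after their values were seen, include Perp, Ano3 and Eed. Of all tested genes, 22.1% had both +OHT libraries above and 15.5% both below the −OHT libraries. In all 24 the −OHT and +OHT libraries did not overlap, which their choice by tests on these same libraries favors. In the 4 Eed fl/fl libraries alone their adjusted p ranged from 0.0216 to 0.181. Log2 fold changes ran from 1.62 to 3.22 for the genes higher with OHT and from −2.25 to −1.60 for those lower.

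Of the 18 higher genes, Perp, Btg2 and Plk2 are in the list of p53 targets. Btg2, an antiproliferative gene, had 36.3 and 30.7 CPM without OHT and 151 and 105 with OHT. Plk2, a polo-like kinase, had 79.0 and 53.6 CPM without and 286 and 173 with OHT. Ccn1, a secreted matricellular protein, had 48.7 and 32.0 CPM without and 152 and 124 with OHT. Ptpn14, a tyrosine phosphatase, had 45.4 and 50.9 CPM without and 159 and 138 with OHT, and Serpine2, a secreted protease inhibitor, 39.5 and 35.7 against 148 and 109. In each of these genes +OHT replicate 1 was above +OHT replicate 2, and both were above the −OHT libraries. Gpx3, a secreted glutathione peroxidase, had 18.9 and 21.8 CPM without and 74.1 and 53.5 with OHT. Fabp5, a fatty acid binding protein, had 16.5 and 14.7 against 50.0 and 48.5, and the small heat shock protein gene Cryab 5.68 and 3.23 against 27.5 and 17.8. The largest fitted log2 fold change among the 18, 3.22 (standard error 0.502), was that of the gene model Gm32585, at 0.617 and 1.2 CPM without and 8.22 and 8.96 with OHT. The remaining genes were Anxa8, Cgref1, Plxdc2, Rtkn, Sytl1, Ttll6 and Zfp750, with log2 fold changes from 1.66 for Rtkn to 2.11 for Cgref1. Of the 18, 11 had a promoter peak of H3K27me3 and 6 one of RING1B in untreated Parental cells, beside 24.1% and 15.5% of all genes tested.

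The 6 lower genes include Eed itself. G0s2, an inhibitor of adipose triglyceride lipase, had the lowest ratio, with 26.0 and 21.6 CPM without OHT and 5.6 and 4.42 with OHT. Mef2b, a MADS-box transcription factor, had 94.8 and 93.5 CPM without and 23.0 and 27.6 with OHT. Aldh1a2, which makes retinoic acid, had 17.3 and 17.7 CPM without and 4.73 and 5.15 with OHT, that is −1.82 ± 0.323 as a log2 fold change (± standard error, adjusted p = 0.118 in edgeR). Chac1 and Trib3, both known targets of the integrated stress response, had 110.3 and 105 against 34.2 and 26.6 CPM, and 164 and 141 against 60.2 and 40.3. Aldh1a2 was the only one of the 6 with promoter peaks of H3K27me3 and RING1B in untreated Parental cells.

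**Figure D2:**
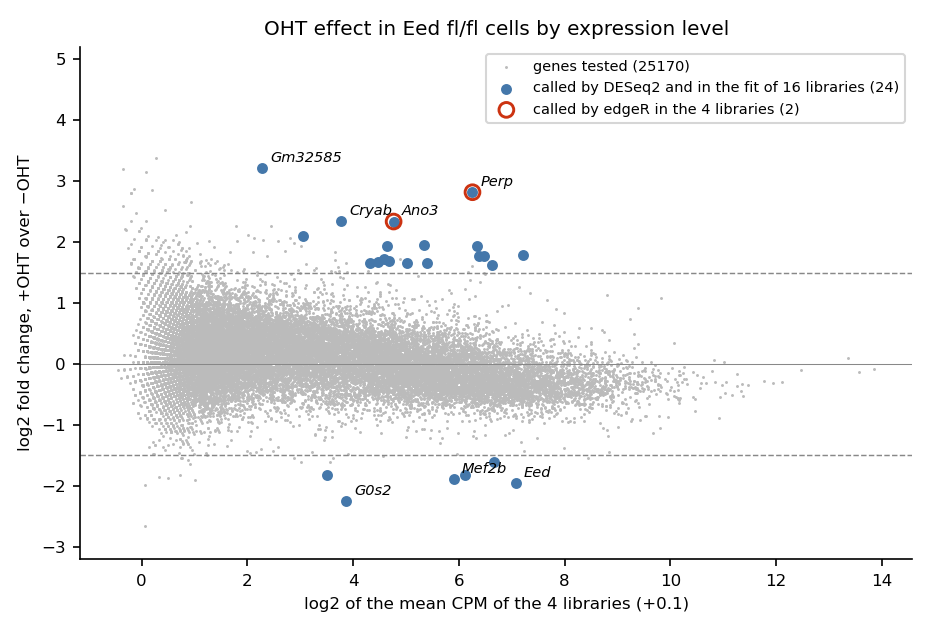
Log2 fold change of each of the 25170 genes tested (y axis, +OHT over −OHT) against the log2 of its mean CPM in the 4 libraries (x axis), with dashed lines at the fold threshold of 1.5. The 2 genes called by edgeR are ringed and the 24 genes called by both alternatives are blue; the cloud bends from above 0 at low levels to below 0 at high levels.

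Among the 24 gene lists, the p53 targets held the largest share of genes with both +OHT libraries above both −OHT libraries. The lists were chosen with earlier results of these data known, which may favor such a share. All 18 members were tested. EdgeR called 1 (Perp) higher, DESeq2 and the fit of 16 libraries each called 3 (Perp, Btg2 and Plk2), and none of these fits called a member lower. Of all genes given an adjusted p, these fits called 0.00795%, 0.125% and 0.152% higher. The median log2 fold change was 0.82, against 0.08 over all genes. In 14 of the 18 both +OHT libraries were above both −OHT libraries, beside the 22.1% over all genes. Examples, named after their values were seen, are Mdm2, which encodes the ubiquitin ligase that limits p53, at 178 and 139 CPM without and 387 and 208 with OHT, and Trp53inp1 at 316 and 246 against 739.5 and 492. The apoptosis gene Pmaip1 had 94.9 and 71.4 against 260.2 and 138 CPM. Cdkn1a, the p21 cell cycle inhibitor, had 356 and 278 CPM without and 411 and 405 with OHT, a log2 fold change of 0.36 (adjusted p = 0.844). Bax and Sesn2 had negative log2 fold changes, of −0.22 and −0.37.

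The stress list of 18 genes held no call by edgeR and had a median of 0.03, with 7 genes apart upward and 7 apart downward, beside 22.1% and 15.5% of all genes. DESeq2 and the fit of 16 libraries called Chac1 and Trib3 lower, and DESeq2 called Fos higher. Chac1 and Fos had the lowest adjusted p of the list in edgeR. Fos, an immediate-early transcription factor, had 16.2 and 11.1 CPM without OHT and 50.7 and 39.5 with OHT (log2 fold change 1.72, adjusted p = 0.0766). Of the immediate-early genes, Jun had 20.2 and 19.6 against 61.0 and 47.7 CPM. Of the integrated stress response genes, Atf4 had 346 and 333 against 205 and 163 CPM, and Ddit3, which encodes CHOP, 31.7 and 25.9 against 16.8 and 12.2. Jun, Atf4 and Ddit3 are named here after their values were seen, and none of the 3 passed the threshold in edgeR, DESeq2 or the fit of 16 libraries.

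Among developmental regulators, the classic Polycomb targets, edgeR and DESeq2 called no gene of these 4 lists, and the fit of 16 libraries called Nkx2-9 higher. DESeq2 gave no adjusted p to Nkx2-9, Hoxb9, Hoxd8 and Foxj1, so it could not call them. It gave one to 15248 genes, where edgeR tested 25170, so other members of these and later lists may also have lacked one. Hox cluster genes had a median log2 fold change of 0.15 over the 18 of 39 that passed the filter on low counts. Hoxb9 had 2.1 and 2.99 CPM without OHT and 4.11 and 4.42 with OHT, and Hoxd8 1.23 and 1.43 against 1.24 and 3.31. Gata and Sox lineage factors had a median of 0.29 (17 of 19 tested). Gata3, a trophoblast and T cell regulator, had 21.6 and 20.8 CPM without and 36.8 and 26.3 with OHT (log2 fold change 0.57, adjusted p = 0.833), and Sox11, of neural progenitors, 76.1 and 61.1 against 46.4 and 40.9. Homeobox and paired factors outside the Hox clusters had a median of 0.15 (46 of 63 tested). Nkx2-9, a ventral neural homeobox gene, had 0.494 and 1.79 CPM without and 7.47 and 3.68 with OHT, and Gbx1 5.31 and 6.57 against 1.99 and 2.33. T-box, forkhead, Zic and bHLH factors had a median of 0.47 (22 of 38 tested), and Neurod1 had 2.96 and 1.67 against 10.5 and 8.47 CPM and Foxj1 0.370 and 1.2 against 1.99 and 3.07. For members that passed the filter only in 1 group the filter itself favors a difference, so these medians are descriptions.

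In the signaling and lineage lists edgeR called no gene. DESeq2 called Lefty1 and Aldh1a2 lower, and the fit of 16 libraries called Id2 higher and Aldh1a2 and Bmp4 lower. Mixl1 and Krt20, named below, had no adjusted p in DESeq2, so it could not call them. Wnt ligands, receptors and targets had a median of 0.35 (34 of 35 tested), where Dkk1, a secreted Wnt inhibitor, had 1.97 and 3.23 CPM without and 8.22 and 6.26 with OHT and Wnt9a 1.36 and 3.83 against 4.23 and 7.24. The BMP, FGF, Hedgehog, Notch and retinoic acid list had a median of 0.11 (50 of 57 tested). Its lowest adjusted p were those of Aldh1a2 and of Id2, an inhibitor of bHLH factors and BMP target, with 49.1 and 44.2 CPM without and 134 and 130.1 with OHT (log2 fold change 1.5, adjusted p = 0.0881). The Nodal pathway had a median of −0.40 (11 tested). Its feedback inhibitors Lefty1 and Lefty2 had 583 and 452 against 232 and 124 CPM, and 1345 and 899.5 against 682 and 339. Mesendoderm markers (median 0.41, 7 of 13 tested) were led by Wnt3 and Mixl1, and primitive endoderm markers (0.35, 17 of 18) by Lamb1 and Col4a1, with Col4a1 at 32.1 and 37.3 against 63.1 and 48.8 CPM. Trophoblast markers had a median of 0.36 (19 of 20 tested), where Krt19 had 13.6 and 8.25 against 31.6 and 21 CPM and Bmp4 10.9 and 13.3 against 2.74 and 5.15. Neuroectoderm markers had a median of −0.16 (11 of 15), with Nefl at 38.6 and 29.3 against 20.9 and 18.2 CPM. Keratins, cadherins and EMT genes had 0.40 (20 of 22), led by Krt19 and Krt20. Feeder and fibroblast markers had 0.55 (12 of 15). All 12 had a positive log2 fold change, none was called, and their summed level was 51.8 and 88.6 CPM without OHT and 86.9 and 116.1 with OHT. Their part in the results was not tested.

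Pluripotency, germline and imprinted genes held no call by edgeR, DESeq2 or the fit of 16 libraries. Naive pluripotency factors had a median of −0.27 (23 tested, 9 of them apart downward, beside 15.5% of all genes), with Klf5 at 279.9 and 198 against 150.2 and 127 CPM and Tcl1 at 193 and 158 against 115 and 75.7. Formative and primed genes had 0.19 (11 tested), with Otx2, a factor of the formative state, at 4.32 and 6.81 against 10.7 and 10.3 CPM and Nes at 11.2 and 8.85 against 15.3 and 12.3. Germline and meiosis genes had 0.19 (29 of 30), where the X-linked homeobox genes Rhox6 and Rhox9 had log2 fold changes of 1.22 and 0.90 (adjusted p = 0.187 and 0.734). Imprinted genes had 0.12 (43 tested). Peg10, a retrotransposon-derived placental gene, had 43.1 and 52.1 CPM without and 118.5 and 124.2 with OHT (log2 fold change 1.35, adjusted p = 0.153), and H19, an imprinted noncoding RNA, 9.87 and 11.2 against 19.4 and 26.4. In the edgeR fit of 16 libraries Peg10 and Rhox6 had adjusted p of 0.00405 and 0.00173, and DESeq2 gave 0.0444 and 0.363. Their log2 fold changes were 1.41 and 1.29 in the first and 1.23 and 1.08 in the second, short of the fold threshold. D-type cyclins and CDK inhibitors had 0.18 (11 of 12), with Rb1 at 1.58 and Cdkn2b at 1.16 on the log2 scale (adjusted p = 0.353 and 0.734), and the fit of 16 libraries called Rb1 higher. The 2-cell-like markers had −0.01 (5 of 13, led by Zscan4d and Usp17la, both of multigene families whose reads may be split) and mitochondrially encoded genes −0.04 (8 of 13, led by mt-Nd3 and mt-Nd2). Zscan4d and Usp17la had no adjusted p in DESeq2, so it could not call them. The 24 lists hold 543 genes, not all of them tested. Among these genes edgeR called 1 (Perp), DESeq2 9 and the fit of 16 libraries 11. Of all genes given an adjusted p, edgeR called 0.00795% higher and 0% lower, DESeq2 0.125% and 0.0853%, and the fit of 16 libraries 0.152% and 0.0253%.

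**Figure D3:**
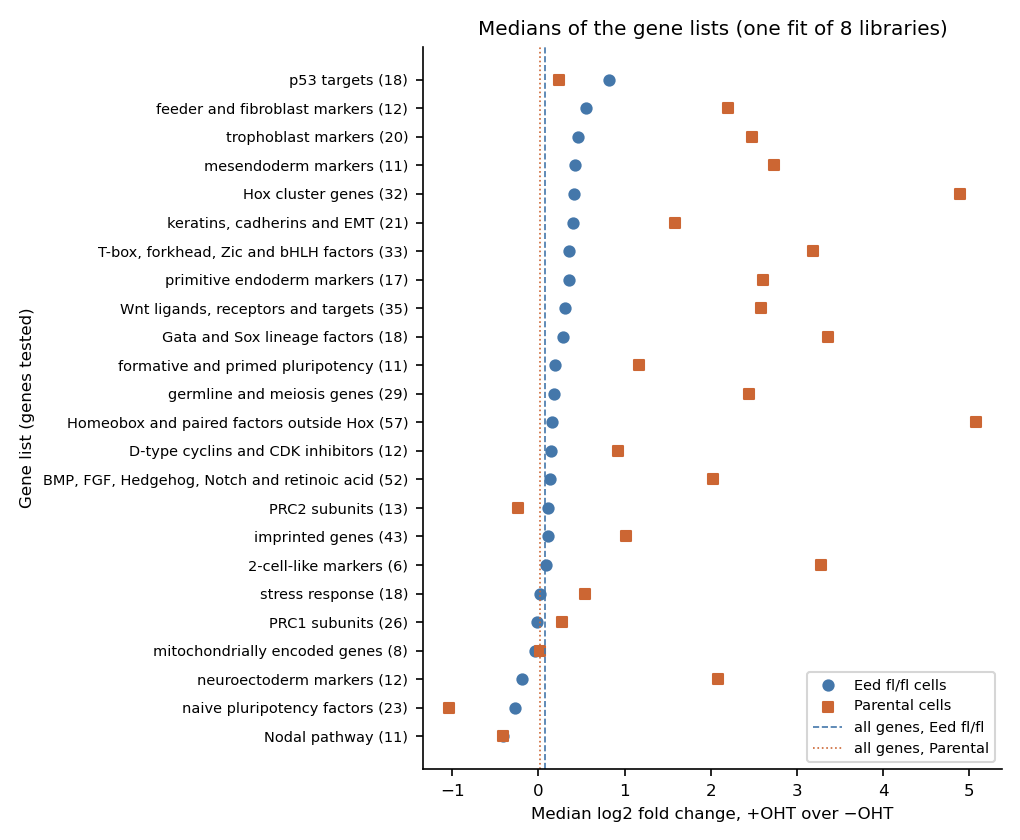
Median log2 fold change with OHT for each of the 24 gene lists in Eed fl/fl cells (circles) and Parental cells (squares), from one fit of 8 libraries that includes members tested through their level in Parental cells alone, with the median of all genes as vertical lines (0.08 and 0.02). The circles of Eed fl/fl cells lie between −0.40 and 0.82, and the Parental squares reach 5.07 for homeobox and paired factors outside Hox and 4.90 for Hox cluster genes.

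Genes were next sorted by the peaks that their promoters, 2.5 kb to either side of any start site, carried in untreated Parental cells. No peaks of Eed fl/fl cells were used, so these are marks of another line. Of the 25170 genes tested, 6078 (24.1%) had an H3K27me3 peak, and their median log2 fold change with OHT was 0.26, against 0.02 for the 19092 genes without one. The medians were 0.22 for SUZ12, 0.24 for RING1B and 0.24 for H2AK119ub1. For the other antibodies they were 0.23 for JARID2, 0.24 for EPOP, 0.28 for AEBP2, 0.12 for MTF2, 0.27 for PCGF2, 0.26 for Cbx7, 0.16 for Rybp and 0.09 for PCGF6. Genes with both H3K27me3 and RING1B had 0.27 (3492 genes), those with H3K27me3 alone 0.25 (2586) and those with RING1B alone 0.02 (397). Of the 2 called genes, 1 had an H3K27me3 peak.

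This median shift was smaller than the median difference between replicate libraries, but the 2 are unlike measures. Each group held 1 library of each number, so a difference shared by number falls on both groups alike. For genes with H3K27me3, replicate 2 exceeded replicate 1 by a median of 0.46 on the log2 scale without OHT and by 0.27 with OHT, where genes without the mark had −0.03 and −0.06. When single libraries were compared, +OHT replicate 1 against −OHT replicate 1 gave a median of 0.36 for the marked genes and +OHT replicate 2 against −OHT replicate 2 gave 0.17, where unmarked genes had 0.01 and −0.03. Across numbers, +OHT replicate 1 against −OHT replicate 2 gave −0.10 and +OHT replicate 2 against −OHT replicate 1 gave 0.69, and these pairs also hold the difference between the numbers.

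Level and base composition moved with the same differences. Genes were split into 5 bins of equal size by mean CPM, and in the lowest bin the median log2 fold change with OHT was 0.20, and in the highest it was −0.24. Within each bin by level, genes with an H3K27me3 peak stood above those without: 0.31 against 0.18 in the lowest, 0.32 against 0.17 in the middle bin and −0.07 against −0.26 in the highest. By GC content of the transcript, the median of marked genes was 0.15 in the bin with the lowest GC and 0.33 in the highest, and their replicate difference without OHT went from −0.03 to 0.79. Unmarked genes had −0.03 and 0.02 with OHT in the same bins. The part of level and GC in the results was not tested.

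**Figure D4:**
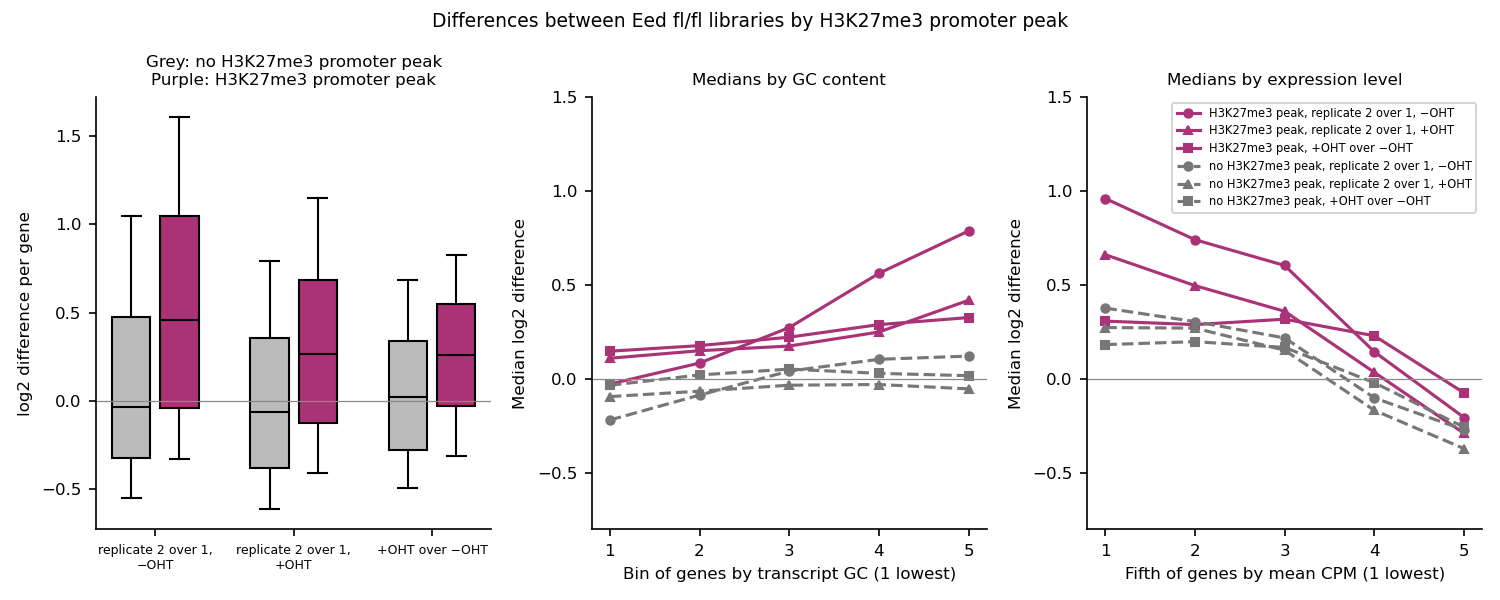
Left, log2 difference per gene between replicate libraries (without and with OHT) and between +OHT and −OHT, for genes without (grey) and with (purple) an H3K27me3 promoter peak; boxes are quartiles with the median, and whiskers span the 10th to 90th percentile. Middle and right, the medians of the same differences in 5 bins of genes by transcript GC and by mean CPM; the replicate difference of marked genes without OHT reaches 0.79 at high GC and 0.96 at low level, above the OHT effect in the same bins.

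Replicate number separated more genes by 2-fold than OHT did. In 903 genes (3.59%) replicate 2 was at least 2-fold above replicate 1 in both groups, and in 29 (0.115%) replicate 1 was at least 2-fold above. With OHT, 311 genes (1.24%) were at least 2-fold higher in both same-numbered comparisons and 46 (0.183%) at least 2-fold lower. Of the 903 genes, 525 (58.1%) had an H3K27me3 peak and 37.4% a RING1B peak, against 24.1% and 15.5% of all tested genes, and of the 311 genes 35.0% had an H3K27me3 peak. Of the 903, 4 developmental regulators are given as examples, named after their values were seen. Cdx2, a trophoblast and caudal homeobox gene, had 0.370 CPM in −OHT replicate 1 and 2.87 in −OHT replicate 2, and 0.498 and 3.68 in the +OHT libraries. Lhx1, a LIM homeobox gene, had 0.247 and 4.06 against 1.24 and 5.77, and Lmx1b, another, 0.617 and 5.74 against 1.37 and 6.63. Hoxb5 had 0.247 and 3.11 CPM without OHT and 0.373 and 3.31 with OHT. In these 4 genes both libraries numbered 2 were above both libraries numbered 1, whichever the treatment, which their choice from the 903 favors. Levels in the libraries numbered 1 were low: Cdx2 had 3 and 4 reads there, against 24 and 30 in those numbered 2. Summed Hox cluster RNA likewise spanned 26.4 to 53.3 CPM without OHT and 26.4 to 66.0 with OHT. Whether the number stands for a clone, a day or a batch is not given in the sources used here.

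Parental cells show what the same treatment did to cells that lose RING1B and already lack RING1A. For this, the 4 Eed fl/fl and 4 Parental libraries were fitted together (26541 genes), and the difference between the OHT effects was tested as an interaction. In that fit Parental cells had 3241 genes higher with OHT (12.2%) and 284 lower (1.07%), and Eed fl/fl cells 30 higher (0.113%) and 10 lower (0.0377%). The OHT effect was lower in Eed fl/fl than in Parental cells for 1501 genes (5.66%) and higher for 130 (0.49%). Of the 1501, 1450 were genes called higher in Parental cells, beside 12.2% of the genes tested, and 84.7% had an H3K27me3 peak, against 24.3%. The difference contains the Parental effect itself, so the overlap with Parental calls is partly built in, and the peaks are also of Parental cells. Genes could pass the filter through treated Parental cells: 443 of the 3241 had 0 counts in untreated ones. With at least 10 counts in every library, 402 genes had a lower effect in Eed fl/fl cells. The 2 lines differ in origin and in RING1A as well as in the deleted gene, and these cannot be told apart.

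The 4 genes with the lowest adjusted p for a lower response in Eed fl/fl cells were Gata3, Ccnd2, Aldh1a2 and Tmem59l. In the scale of the joint fit, Gata3 had 0.531 and 0.530 CPM in Parental cells without OHT and 60.9 and 59.7 with OHT, whereas Eed fl/fl cells had 19.4 and 18.6 without and 33.1 and 23.4 with OHT. The difference in log2 fold change was −6.22 (standard error 0.428, adjusted p = 6.91e-08 in edgeR). Gata3 was thus already higher in untreated Eed fl/fl cells than in untreated Parental cells. Ccnd2, a D-type cyclin, had 2.66 and 4.64 CPM in Parental cells without and 224 and 192 with OHT, and 7.32 and 8.02 against 7.15 and 9.31 in Eed fl/fl cells. Its difference was −5.77 (standard error 0.397). Aldh1a2 had 5.75 and 4.64 CPM in Parental cells without and 43.5 and 42.0 with OHT, and 15.5 and 15.8 against 4.25 and 4.60 in Eed fl/fl cells, so that it was higher with OHT in the one line and lower in the other. Its difference was −4.85 (standard error 0.373). Tmem59l, a transmembrane protein gene, had 3.10 and 2.65 CPM against 37.0 and 35.0 in Parental cells and 12.9 and 11.1 against 4.92 and 5.69 in Eed fl/fl cells, a difference of −4.80. All 4 had H3K27me3 and RING1B promoter peaks in untreated Parental cells.

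The 4 genes with the lowest adjusted p for a higher response in Eed fl/fl cells were called lower in Parental cells. Trh, the thyrotropin-releasing hormone gene, had 1819 and 2225 CPM in Parental cells without OHT and 101 and 97.0 with OHT, and 726 and 555 against 530.1 and 352 in Eed fl/fl cells. The difference in log2 fold change was 3.81 (standard error 0.376, adjusted p = 7.37e-06). Aoah, a lipase that inactivates bacterial lipid, had a difference of 3.92, the noncoding gene 4930519F16Rik 3.48, and Sall1, a zinc finger factor, 2.56. None of these 4 had an H3K27me3 or RING1B promoter peak in untreated Parental cells, while Sall1 had one of SUZ12 and one of H2AK119ub1, and in Eed fl/fl cells their OHT effects were −0.54, −0.39, 0.06 and 0.17, with adjusted p from 0.617 to 0.974.

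The genes that rose in Parental cells stood slightly above the rest in Eed fl/fl cells. Over the 3241 genes the median log2 fold change was 2.93 in Parental cells and 0.37 in Eed fl/fl cells, with quartiles of 0.07 and 0.66 and 79.9% positive, against a median of 0.08 and 56.7% positive over all genes. Of the 3241, 2458 had an H3K27me3 peak. Genes with that peak had a median of 0.26 in the Eed fl/fl libraries, where replicates differed by 0.46 without and 0.27 with OHT. The part of the mark, of level and of replicate number in this shift was not tested. Of the 3241, 16 were also called higher in Eed fl/fl cells, which is 0.494% of the Parental calls and 53.3% of the 30 Eed fl/fl calls, beside 0.113% and 12.2% of all genes tested. Over the 284 genes that fell in Parental cells the medians were −2.19 and −0.23. Hox cluster genes, of which 32 were tested here, were called higher in Parental cells in 26 cases with a median of 4.90, against 0.42 in Eed fl/fl cells, and the difference was called for 14. Over the 18 that passed the filter in the Eed fl/fl libraries, 14 were called higher in Parental cells, the medians were 4.73 and 0.15, and the difference was called for 8. The others passed only with the Parental libraries, so the filter itself favors a contrast there. For homeobox and paired factors outside the Hox clusters 48 of 57 were called in Parental cells and the difference for 36, and over the 46 that passed in the Eed fl/fl libraries for 37 and 30.

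The genes called in Eed fl/fl cells did not share one response in Parental cells. Perp had 8.50 and 10.6 CPM in Parental cells without OHT and 42.4 and 52.7 with OHT, that is 2.32 ± 0.259 as a log2 fold change (± standard error, adjusted p = 2.62e-06). Its difference between the lines was 0.49 (standard error 0.351, adjusted p = 0.524). Ano3 had 4.87 and 4.64 CPM without and 6.98 and 9.55 with OHT in Parental cells, and its response was higher in Eed fl/fl cells by 1.54 (standard error 0.411, adjusted p = 0.0246). Eed had 258 and 304 CPM in Parental cells without and 166 and 145 with OHT (log2 fold change −0.85, adjusted p = 0.0188, short of the fold threshold), and its difference between the lines was −1.10 (standard error 0.359, adjusted p = 0.0722). Of the 18 genes called higher by both alternatives, 11 were called higher in Parental cells, and the difference was called for 4, with 2 in each direction: Ccn1 and Gm32585 lower in Eed fl/fl cells, Ano3 and Zfp750 higher. Of the 6 lower genes, Chac1 was also called lower in Parental cells and Aldh1a2 was called higher there, and the difference was called for Aldh1a2 and G0s2. Fos, an immediate-early gene, ranged from 6.09 to 30.5 CPM within untreated Parental cells and from 144 to 1163 within treated ones. The median of all p53 targets was 0.24 in Parental and 0.82 in Eed fl/fl cells. The difference was called for 1 of 18, with the lower response in Eed fl/fl cells, and for 0 in the other direction. Of the 18, 5 were called higher in Parental cells.

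**Figure D5:**
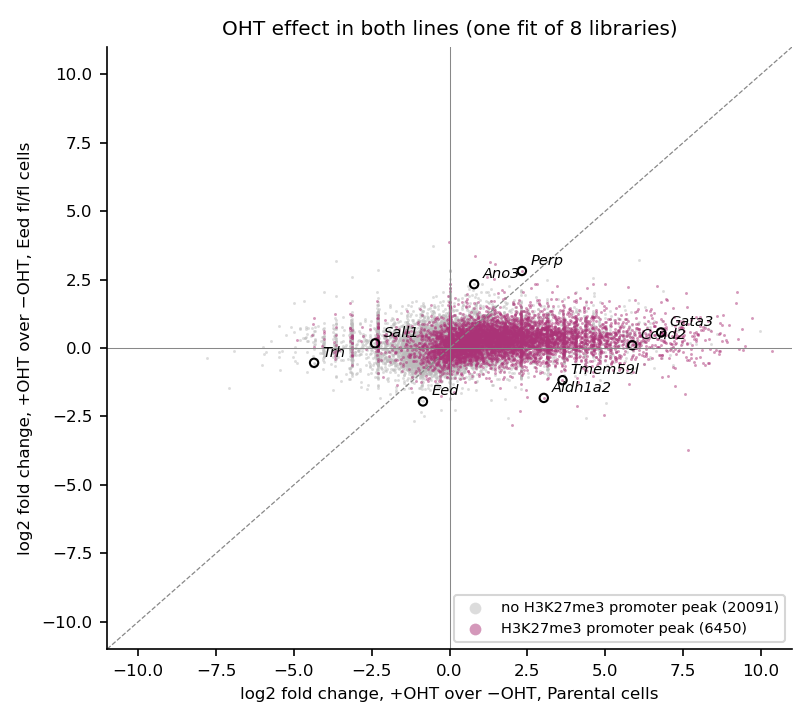
Log2 fold change with OHT in Eed fl/fl cells (y axis) against that in Parental cells (x axis) for 26541 genes of one fit of 8 libraries, with genes that have an H3K27me3 promoter peak in purple and equal change as a dashed line. The cloud is stretched along the Parental axis, and Gata3 and Ccnd2 lie far to the right near an Eed fl/fl value of 0, while Perp lies near the diagonal.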

How the data were processed

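Poly-A RNA of 4 Eed fl/fl and 4 Parental libraries was compared. The authors aligned reads to mm10 with STAR (2.7 per the labels) without multi-mapping, removed duplicates with samblaster, counted per GENCODE M21 gene name with featureCounts without strand, and deposited raw counts, so overlapping and antisense genes cannot be told apart. The table of Eed fl/fl libraries deposited as normalized equals the raw counts at 221364 of 221364 positions. The authors called peaks with MACS2 in each library, and the deposited scores are −log10 p-values. Their 7 comparison tables (fold changes and p-values) and the other normalized table were not used.

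Tests ran in R 4.3.3, with edgeR 4.0.16 (TMM, filterByExpr, quasi-likelihood) as the main tool and limma 3.58.1 and DESeq2 1.42.0 as alternatives. Genes were called at a Benjamini-Hochberg adjusted p under 0.05 and a log2 fold change of 1.5 or more in size. Single libraries were compared as log2 CPM with a prior count of 2. Among 55341 gene names, 114 cover several gene models, which were not separated. The biological coefficient of variation was 0.251, which limits precision with 2 replicates a group. Replicates are called biological without naming their source, and differed beyond sampling noise (chi-square per gene 5.27 and 5.10). Figures were drawn with matplotlib 3.10.9 in Python 3.11.15.

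Named are the PRC2 subunits, per direction the 12 called genes of lowest adjusted p (all where fewer), called members of 24 gene lists (up to 6, or as values the 2 of lowest adjusted p where none was called) and per direction the 4 genes of lowest adjusted p for the difference from Parental cells. Members and lists were chosen with earlier results of these data known. Alternatives were other tests, scalings, filters, thresholds, joint fits, a replicate block, each library left out, and other promoter and peak definitions. The scripts were tested on simulated data.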

Additional observations from a re-analysis of the deposited data

Results flagged for a closer look

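The OHT effect differed between Eed fl/fl and Parental cells by the test of the difference itself (edgeR, interaction term, adjusted p under 0.05 and an absolute difference of at least 1.5 on the log2 scale) for 1501 genes with a lower and 130 with a higher effect in Eed fl/fl cells. Among the genes with the lowest adjusted p, the difference in log2 fold change, Eed fl/fl minus Parental, was −6.22 for Gata3, −5.77 for Ccnd2, −4.85 for Aldh1a2 and −4.80 for Tmem59l. In the other direction it was 3.81 for Trh, 3.48 for 4930519F16Rik, 3.92 for Aoah and 2.56 for Sall1. Each group had 2 libraries, so no single library could be tested as an outlier.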

How the results depend on the processing

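With 2 libraries a group, the count of calls in Eed fl/fl cells was the least stable result. Against 2 genes higher and 0 lower, the counts were 19 and 13 with DESeq2, 4 and 2 with RLE normalization, 26 and 4 with library totals only, 17 and 4 with at least 10 counts in every library, 42 and 7 in one fit of 16 libraries, and 30 and 10 in one fit with the Parental libraries, an alternative chosen after seeing the data. Limma and the fit without a filter on low counts called 1 gene higher and 0 lower. Leaving out 1 library gave 9 to 241 higher and 4 to 21 lower. The scaling by totals moved the median log2 fold change of all genes from 0.08 to 0.28, and RLE moved it to −0.01. A replicate block, which takes the shared number as a pair, called 140 and 21. Deviations of same-numbered libraries correlated at 0.459, but with 2 numbers and no label that ties them to a clone or day this is only a shared number.

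The log2 fold change of Eed was past the threshold at −1.95 in the fit with the Parental libraries, −2.08 with DESeq2, −1.75 with library totals only, −1.91 with at least 10 counts in every library, −1.89 in the fit of 16 libraries and −1.96 with the replicate block. Without 1 library it ranged from −2.34 to −1.64. The difference from Parental cells gave 196 genes higher with the replicate block and 249 without a fold threshold, and 607 lower with no filter and 402 with at least 10 counts in every library, against 130 and 1501. Leaving out 1 library gave 84 to 230 and 1106 to 2284, and the values over 1.5 times away were 84 without Parental +OHT replicate 2, and 230 and 2284 without Eed fl/fl −OHT replicate 1.

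No called value changed sign. Among genes called in neither fit, 11 signs changed. With a peak score of at least 20, 0 of the 2 called genes had an H3K27me3 or H2AK119ub1 peak, against 1. The cause of these changes was not tested. Genes with few reads limit what 2 libraries of this depth can show.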
